A study of Saccharomyces cerevisiae with 19 samples.

Results

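Yeast cells carrying Pcf11 with 4 changed residues were compared with yeast labelled as lacking the gene, without reference to a wild-type library. The comparison takes 3 RNA-seq libraries of each strain, 6 of the 19 libraries in the series, and every named feature of the deposited count table, 6409 of 6863. Of these, 6092 had enough counts to be tested. The Pcf11-AARR strain of Saccharomyces cerevisiae has the substitutions Y575A, E577R, E578R and W582A in Pcf11, and the other strain, labelled ΔPcf11, is described as having the gene deleted directly from the genome. Both were grown in liquid medium at 30 °C, with antibiotics where these were needed, and are labelled 36 h. The labels name both S288C and CEN.PK2-1C for every library, state 3 biological replicates for each strain, and say neither whether a strain is 1 clone nor which selection marker it carries. RNA went through a stranded mRNA library kit, and the series also holds WT, overexpression and crosslinking libraries, of which only WT was used, in 1 alternative fit.

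Pcf11 is a subunit of cleavage factor IA, the complex that, with the cleavage and polyadenylation factor, cuts nascent messenger RNA and lets a poly(A) tail be added. It also binds the C-terminal domain of RNA polymerase II and helps to end transcription, and in budding yeast PCF11 is known as an essential gene. Counts per gene measure how much RNA was sequenced from each gene and do not measure where that RNA ends.

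The changed residues lie near the end of the 626 codons of PCF11. The stretch of 60 bases below, codons 569 to 588, is shown because it holds every difference by which the Pcf11-AARR strain is defined. It was cut from the RefSeq genome of assembly R64 at chrIV:922043-922102, minus strand, and is printed 5′ to 3′ with the 4 codons that the substitutions replace in capitals. The reference codons encode the residues that the labels name at positions 575, 577, 578 and 582, counted from the start codon. The codons that replaced them are not known here.
PCF11 codons 569 to 588: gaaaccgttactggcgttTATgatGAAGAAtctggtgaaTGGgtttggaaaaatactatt

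Total counts were 26211192 to 46296634 per library, and 6288 to 6316 named features had at least 1 count in a library. By the authors' mapping table, 69.8% ± 20.9 of reads mapped in Pcf11-AARR and 58.4% ± 2.98 in the libraries labelled ΔPcf11 (SD, n = 3 each). The share of assigned reads in 5′ untranslated regions was 0.127% ± 0.0153 in Pcf11-AARR and 0.203% ± 0.0115 in the libraries labelled ΔPcf11. In each strain 1 library stood apart. Replicate 3 of Pcf11-AARR gave a chi-square per degree of freedom of 327.1 and 343.3 against its strain mates, with 37.9 between replicates 1 and 2. Replicate 1 of the libraries labelled ΔPcf11 gave 254.7 and 276.8 against its mates, with 74.2 between replicates 2 and 3. The same 2 libraries held relatively more of the long features. Across features, the Spearman correlation of a library's deviation from its strain mates with feature length was -0.35, -0.19 and 0.35 in Pcf11-AARR replicates 1 to 3, and 0.40, -0.36 and -0.14 in the libraries labelled ΔPcf11. Results are therefore also given, where it matters, without these 2 libraries and after a length correction, both chosen after seeing the data.

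**Figure D1:**
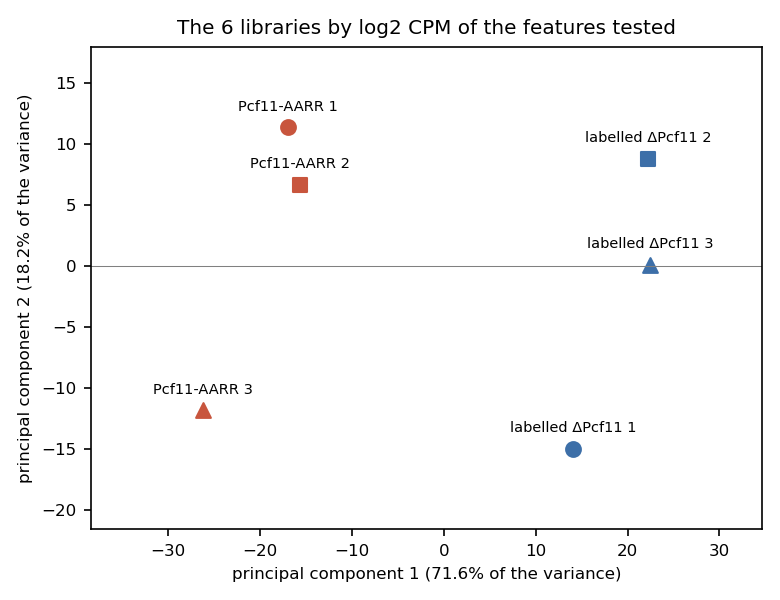
Position of the 6 libraries on the first and second principal components of log2 CPM, coloured by strain and shaped by replicate. The first component, 71.6% of the variance, separates the 3 Pcf11-AARR libraries on the left from the 3 labelled ΔPcf11 on the right, and the second, 18.2%, sets Pcf11-AARR replicate 3 and labelled ΔPcf11 replicate 1 apart from the rest.

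Levels below are CPM, counts scaled to the size of the library after TMM adjustment, and fold changes are Pcf11-AARR over the libraries labelled ΔPcf11, so a positive log2 value means more RNA in Pcf11-AARR. A feature is called at an adjusted p under 0.05 in edgeR's quasi-likelihood test, adjusted over all 6092 features. PCF11 (YDR228C, chrIV:921441-923806, minus strand) was measured first as a check of the labels. It had 21.5, 23.5 and 21.0 CPM in Pcf11-AARR, against 12.7, 13.8 and 13.0 CPM in the libraries labelled ΔPcf11. The raw counts behind these levels were 587, 1136 and 853 in Pcf11-AARR and 455, 426 and 478 in the libraries labelled ΔPcf11. Reads on the gene were thus not missing from the strain labelled as its deletion, and every Pcf11-AARR library lay above every library of that strain. The log2 fold change was 0.74 ± 0.10 SE with an edgeR adjusted p of 0.00144, and an exact two-sided permutation test gave p = 0.10, the smallest that 3 against 3 libraries allow. The opposite strand carries SIR4, a gene of silent chromatin, and 666 bases, 28.1% of PCF11, are common to both. SIR4 had 46.8, 50.2 and 47.5 CPM in Pcf11-AARR and 60.0, 53.2 and 56.6 CPM in the libraries labelled ΔPcf11 (edgeR adjusted p = 0.0792). How many of the PCF11 counts come from the shared bases cannot be read from counts per feature.

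Of the 6092 features, 1209 were called higher in Pcf11-AARR (19.8%) and 1045 lower (17.2%), 37.0% in either direction. By 2-fold or more, 168 were higher (2.76%) and 239 lower (3.92%). The 3 libraries of one strain lay entirely above those of the other for 1716 features higher in Pcf11-AARR (28.2%) and 1483 lower (24.3%), 52.5% in all. Such separation held for 1207 of the 1209 features called higher and 1037 of the 1045 called lower. It therefore adds little to a call. The median log2 fold change over all features was 0.00. Without the 2 libraries that stand apart, 1358 were higher and 1347 lower, 22.3% and 22.1% of 6100 features tested. With other libraries left out the counts were smaller, at 860 higher and 689 lower without Pcf11-AARR replicate 2 and 667 higher and 620 lower without labelled ΔPcf11 replicate 3. The authors' deposited table, whose log2 fold change runs the other way, lists 433 features at a false discovery rate of 0.05 and 2-fold, of which 397 are named features. All 397 were tested here and called in the same direction. The deposited table rests on the same 6 libraries, so this is not an independent check. At the false discovery rate without the 2-fold limit it lists 2325 features.

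**Figure D2:**
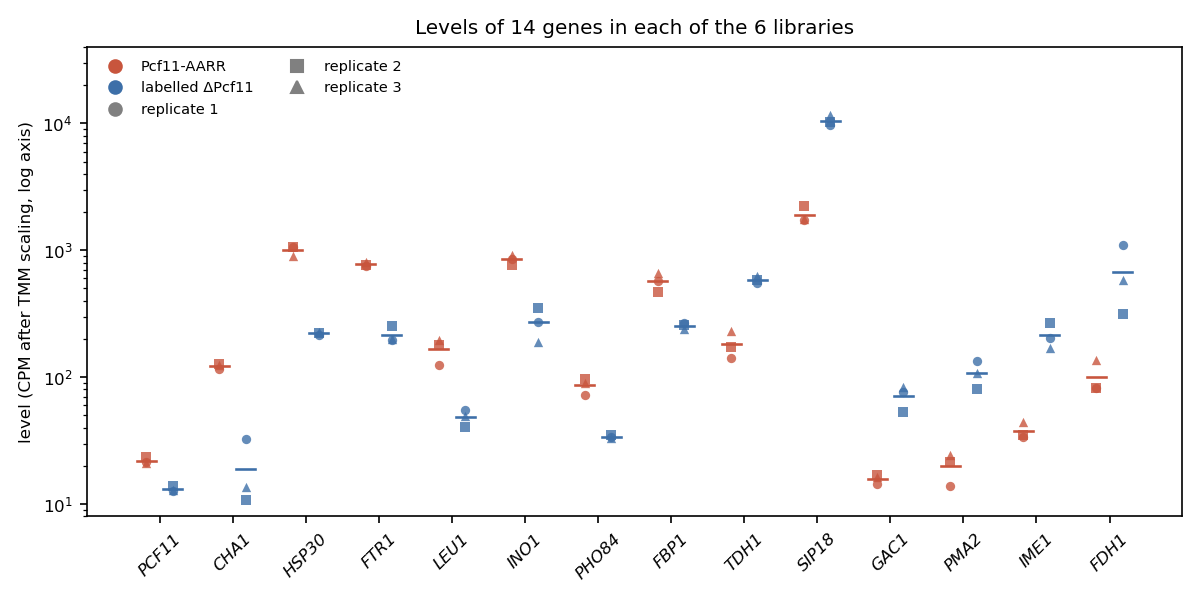
Level of 14 genes named in the text in each library, in CPM on a log axis, with Pcf11-AARR left and the libraries labelled ΔPcf11 right for each gene, symbols for replicates and a line at the mean. PCF11 lies at 21.0 to 23.5 CPM in Pcf11-AARR and at 12.7 to 13.8 CPM in the libraries labelled ΔPcf11. For each of the 14 genes the strains do not overlap, as for nearly all called features.

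Among the other genes of 3′ end formation, most were not called. Of the 5 subunits of cleavage factor I, 2 were higher and 0 lower, with a median log2 fold change of 0.23. The second, after PCF11, was CLP1, which binds Pcf11 in the complex, at 26.9, 27.7 and 29.2 CPM in Pcf11-AARR and 21.8, 17.7 and 21.5 CPM in the libraries labelled ΔPcf11 (log2 fold change 0.46 ± 0.11, edgeR adjusted p = 0.0145). Of 15 subunits of the cleavage and polyadenylation factor, 1 was higher (6.67%, against 19.8% of all features) and 3 lower, a share close to the 17.2% of all features. PAP1, the poly(A) polymerase, had 179, 169 and 202 CPM in Pcf11-AARR and 117, 116 and 100.2 CPM in the libraries labelled ΔPcf11 (log2 fold change 0.73 ± 0.11, edgeR adjusted p = 0.00248). REF2, a subunit that small nucleolar RNA ends depend on, was lower, with 22.3, 25.4 and 24.3 CPM in Pcf11-AARR against 64.3, 68.6 and 70.4 CPM in the libraries labelled ΔPcf11 (log2 fold change -1.50 ± 0.10, edgeR adjusted p = 0.000258). Its neighbour CAB5 overlaps 42.8% of it and was lower as well, at -1.84 ± 0.11. SYC1 and GLC7, a small subunit of the complex and its protein phosphatase, were also lower, with log2 fold changes of -1.13 and -0.45. Of the 7 termination factors, which include PCF11, 4 were higher (57.1%, against 19.8% of all features) and 0 lower. They held RAT1, the nuclear exonuclease that degrades RNA behind the cut, at a log2 fold change of 0.70, its partner RAI1 at 0.49, and NRD1, a factor of the early termination pathway, at 0.29. NRD1 missed the threshold with any 1 library left out (edgeR adjusted p = 0.0573 to 0.0939). With the length correction it was not called either (log2 fold change 0.16, edgeR adjusted p = 0.187), while 3 genes of this list and of cleavage factor I passed the threshold that had missed it. These were the termination helicase SEN1, higher at 0.35 (edgeR adjusted p = 0.0253), RTT103, which binds the polymerase tail, lower at -0.36 (edgeR adjusted p = 0.0218), and HRP1, a subunit of cleavage factor I, lower at -0.42 (edgeR adjusted p = 0.0342). RAI1 shares 50.6% of its bases with BRR6. Of 18 genes of the nuclear exosome and its TRAMP cofactor, 6 were higher (33.3%) and 0 lower. The higher ones were led by RRP45 at 0.69, CSL4 at 0.56 and DIS3, the catalytic subunit, at 0.56. RRP45 and CSL4 share 56.0% and 56.8% of their bases with PHM6 and PDR16. Without labelled ΔPcf11 replicate 3, 2 of the 18 were called.

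**Figure D3:**
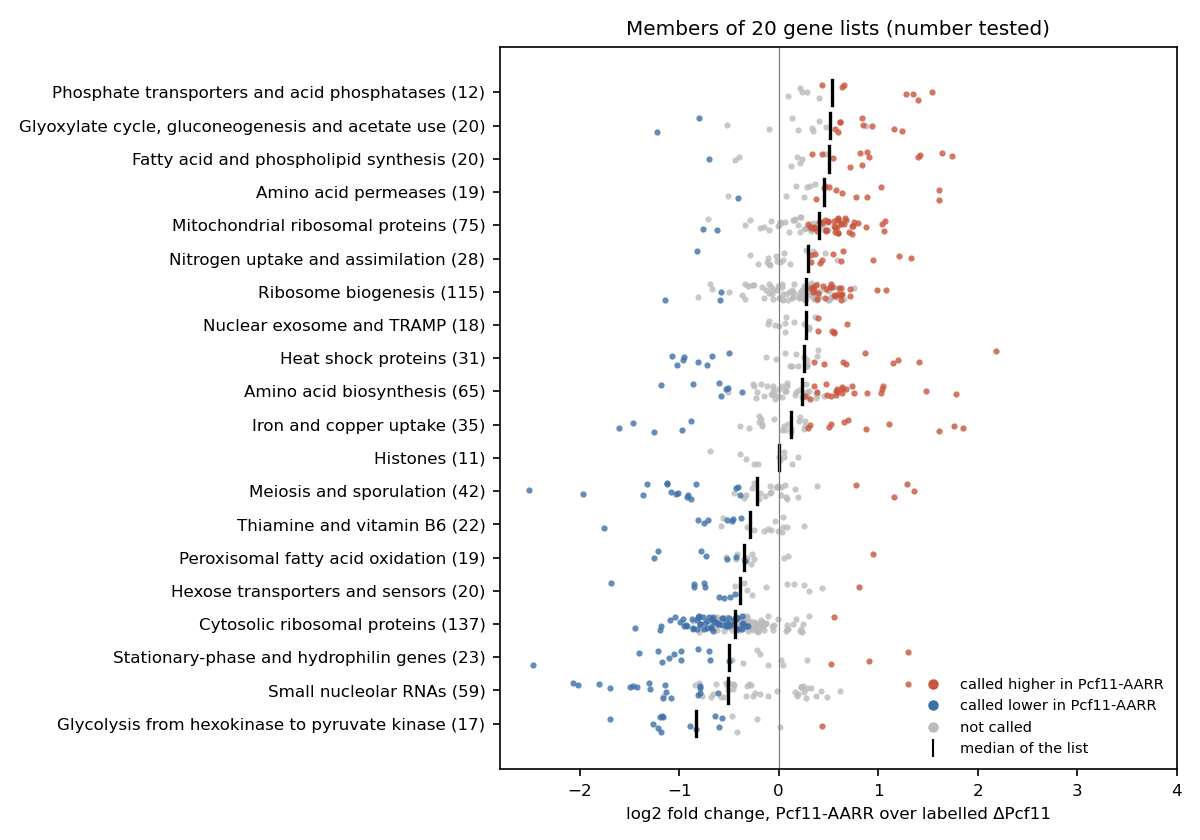
Log2 fold change, Pcf11-AARR over the libraries labelled ΔPcf11, of every tested member of 20 gene lists, coloured by call, with the median of each list as a black bar and the number tested in brackets. Medians run from 0.54 for the list labelled phosphate transporters and acid phosphatases, which also holds PHO8 and PHO13, to -0.83 for glycolysis. Over all features the median was 0.00.

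The highest called genes in Pcf11-AARR came from different pathways. CHA1 (YCL064C, chrIII:15375-16880), which breaks down serine and threonine, had 116, 128 and 125 CPM in Pcf11-AARR and 32.4, 10.8 and 13.7 CPM in the libraries labelled ΔPcf11. That is 6.46-fold higher (log2 fold change 2.69 ± 0.38, edgeR adjusted p = 0.00173), and labelled ΔPcf11 replicate 1, one of the 2 libraries that stand apart, was the highest of its strain. Without that library the log2 fold change of CHA1 was 3.31 (edgeR adjusted p = 0.000162). HSP30 (YCR021C), a membrane protein that damps the plasma membrane proton pump, had 1056, 1055 and 908 CPM in Pcf11-AARR and 216, 221 and 229 CPM in the libraries labelled ΔPcf11, 4.53-fold higher. The gap between the strains was many times the spread within either. FTR1 (YER145C), the high-affinity iron permease, had 758, 765 and 808 CPM in Pcf11-AARR and 196, 253 and 199 CPM in the libraries labelled ΔPcf11, 3.60-fold higher. Apart from AI1, given next, the other 11 of the 15 highest genes with standard names lay at log2 fold changes of 2.44 to 1.61. They were TDA6, ROG3, AST1, ALD5, TOS3, LEU1, PSD1, RKM3, INO1, ENB1 and DIP5. The mitochondrial intron reading frame AI1 had the highest value of all, a log2 fold change of 3.51 ± 0.95, but it rested on Pcf11-AARR replicate 3. Its levels were 7.29, 4.79 and 56.9 CPM in Pcf11-AARR and 2.17, 2.30 and 1.61 CPM in the libraries labelled ΔPcf11, and it lies inside COX1. Without the 2 libraries that stand apart it came to 1.62 (edgeR adjusted p = 0.00176), and without Pcf11-AARR replicate 3 alone to 1.56 (edgeR adjusted p = 0.00360). AI1 was not called without labelled ΔPcf11 replicate 2 (edgeR adjusted p = 0.0659) or replicate 3 (edgeR adjusted p = 0.0964).

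The lowest genes in Pcf11-AARR were the formate dehydrogenases FDH1 and FDH2. FDH1 (YOR388C, chrXV:1071793-1072923) had 82.6, 81.9 and 136 CPM in Pcf11-AARR and 1109, 313 and 588 CPM in the libraries labelled ΔPcf11, 6.69-fold lower (log2 fold change -2.74 ± 0.45, edgeR adjusted p = 0.00318). FDH2 had 25.9, 26.7 and 41.4 CPM in Pcf11-AARR against 367, 102 and 204 CPM in the libraries labelled ΔPcf11, a log2 fold change of -2.84. The genes are close copies, so reads may have been split between them, and the order of the 6 libraries is nearly the same in both. IME1, the master activator of meiosis, was 5.68-fold lower, and SIP18, a desiccation protein, 5.53-fold lower. PMA2, the minor copy of the plasma membrane proton pump, had 13.9, 21.4 and 24.5 CPM in Pcf11-AARR and 133, 80.8 and 108 CPM in the libraries labelled ΔPcf11, 5.37-fold lower. The major copy PMA1 moved the other way, with 499, 546 and 439 CPM in Pcf11-AARR and 247, 342 and 236 CPM in the libraries labelled ΔPcf11 (log2 fold change 0.85 ± 0.17, edgeR adjusted p = 0.00721). GAC1, the regulatory subunit that directs the Glc7 phosphatase to glycogen synthase, was 4.44-fold lower, and RGI2, a gene of energy metabolism under respiration, 4.43-fold lower. HPF1, a mannoprotein of the cell wall, fell to 356, 494 and 496 CPM in Pcf11-AARR, against 2052, 1424 and 1841 CPM in the libraries labelled ΔPcf11. CIS1, SPO19, HOP2 and GAS4 and the ribosomal DNA pieces ITS1-1, RDN58-1 and ETS1-2 complete the 15 lowest, at log2 fold changes of -1.97 to -2.54. The ribosomal DNA pieces lie within the RDN37 repeats, and CIS1, SIP18 and HOP2 share 77.8%, 60.0% and 53.7% of their bases with another feature.

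Glycolysis was lower in Pcf11-AARR at nearly every step. Of 17 genes from hexokinase to pyruvate kinase, 12 were lower (70.6%, against 17.2% of all features), 1 was higher and 4 were not called. The median log2 fold change was -0.83, against 0.00 over all features. The summed level of the 17 genes was 2940.0, 3652 and 4279 CPM in Pcf11-AARR and 6793, 7141 and 7454 CPM in the libraries labelled ΔPcf11, with no overlap. In cultures measured in bulk, fewer cells with a transcript and less of it per cell cannot be told apart. The lowest were the 3 glyceraldehyde-3-phosphate dehydrogenases. TDH1 had 142, 174 and 231 CPM in Pcf11-AARR and 551, 581 and 632 CPM in the libraries labelled ΔPcf11, TDH2 a log2 fold change of -1.26 ± 0.24 and TDH3 one of -1.21 ± 0.18. The 3 are close copies of each other. At the upper steps, PGI1, phosphoglucose isomerase, had a log2 fold change of -0.89 ± 0.15, the phosphofructokinase subunits PFK1 and PFK2 at -0.57 and -0.60, and FBA1, aldolase, at -1.18 ± 0.16. Hexokinase 2, HXK2, was the 1 higher member, with 34.5, 36.2 and 31.2 CPM in Pcf11-AARR and 24.9, 23.3 and 27.2 CPM in the libraries labelled ΔPcf11 (log2 fold change 0.44 ± 0.10, edgeR adjusted p = 0.0143). All 12 lower members stayed called without the 2 libraries that stand apart, and with the length correction all but TPI1, triose phosphate isomerase (edgeR adjusted p = 0.117).

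Beyond pyruvate the list was split. Of 14 genes from pyruvate to ethanol and acetate, 4 were higher and 4 lower (28.6% each, against 19.8% and 17.2% of all features). The median was -0.01, and 2 were called lower without Pcf11-AARR replicate 2, Pcf11-AARR replicate 3 or labelled ΔPcf11 replicate 3. PDC6, a minor pyruvate decarboxylase, had 40.2, 49.5 and 58.6 CPM in Pcf11-AARR and 174, 195 and 182 CPM in the libraries labelled ΔPcf11, 3.71-fold lower, and the major one, PDC1, was 2.16-fold lower. ALD5, a mitochondrial acetaldehyde dehydrogenase, was higher, with 46.3, 57.7 and 66.9 CPM in Pcf11-AARR against 16.0, 14.3 and 13.8 CPM in the libraries labelled ΔPcf11, 3.87-fold.

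Genes of the glyoxylate cycle, gluconeogenesis and acetate use ran the other way. Of 20 tested, 9 were higher and 2 lower, with a median of 0.52. FBP1, the fructose-1,6-bisphosphatase that reverses the phosphofructokinase step, had 574, 469.5 and 664 CPM in Pcf11-AARR and 266, 256 and 239.5 CPM in the libraries labelled ΔPcf11 (log2 fold change 1.16 ± 0.15, edgeR adjusted p = 0.00122). PCK1, which makes phosphoenolpyruvate from oxaloacetate, was at 0.57 ± 0.15, and ICL1 and MLS1, the pair of enzymes particular to the glyoxylate cycle, were at 0.94 ± 0.17 and 0.85 ± 0.18. SFC1, the mitochondrial succinate-fumarate carrier, was at 1.24 ± 0.13. For these 5 genes the libraries of the strains did not overlap, as for nearly all called features. The 2 lower members were ATO2, a member of the family of ammonia and acetate transporters, at -1.22, and SIP4, a transcription factor of gluconeogenic genes, at -0.80. Without labelled ΔPcf11 replicate 3, 5 of the 20 were called higher. Of 20 hexose transporters and sensors, 9 were lower and 1 higher, with a median of -0.39. HXT5, the transporter of slow-growing cells, was at -0.74 ± 0.18, HXT2 at -0.85 ± 0.16 and HXT14 at -1.68 ± 0.21, and the higher one was STL1, a glycerol symporter, at 0.81 ± 0.12. HXT genes are alike in sequence and may share reads. Leaving out Pcf11-AARR replicate 2 or labelled ΔPcf11 replicate 3 left 4 of them called lower.

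**Figure D4:**
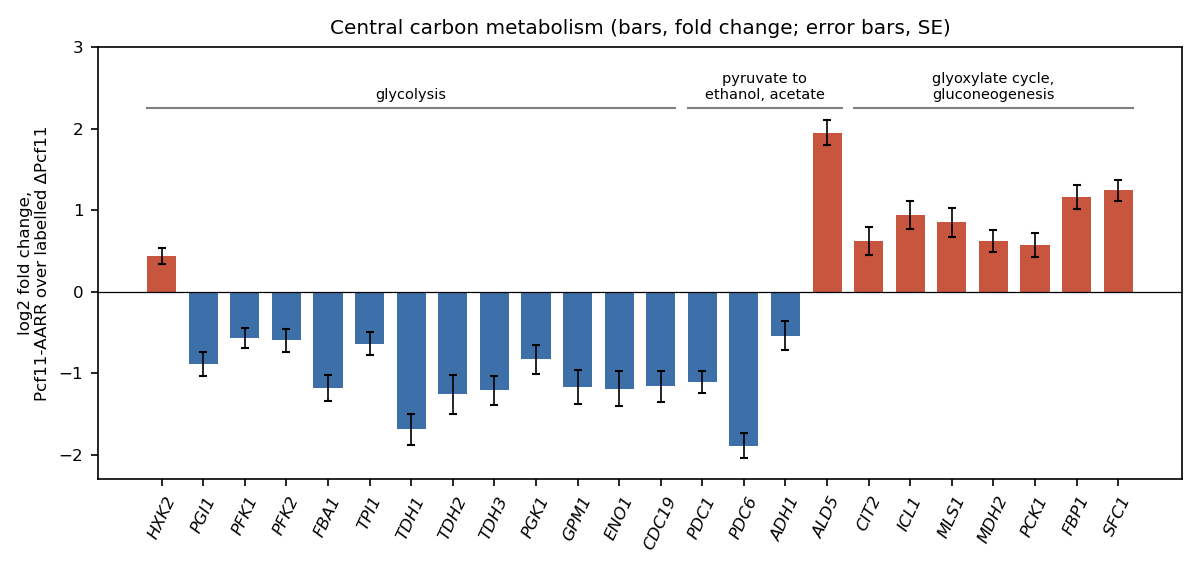
Log2 fold change, Pcf11-AARR over the libraries labelled ΔPcf11, of 24 called genes of central carbon metabolism, with bars for the fold change and error bars for the SE. Apart from HXK2, the glycolytic genes are below 0, at -0.57 to -1.69, and the glyoxylate and gluconeogenic genes shown are above 0, at 0.57 to 1.24.

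Genes of phosphate supply were higher in Pcf11-AARR. Of 12 genes of phosphate transporters and phosphatases, 7 were higher and 0 lower, 58.3% against the 19.8% of all features. The median log2 fold change was 0.54. Besides transporters and acid phosphatases, the 12 include the phosphatases PHO8 and PHO13, which are not of the acid kind and were both called higher. PHO84, the high-affinity phosphate transporter, had 72.6, 97.2 and 89.8 CPM in Pcf11-AARR and 33.9, 35.3 and 32.9 CPM in the libraries labelled ΔPcf11, 2.54-fold higher (log2 fold change 1.35 ± 0.12, edgeR adjusted p = 0.000383). PHO89, the sodium-phosphate transporter, was 2.64-fold higher, and GIT1, which takes up glycerophosphoinositol, 2.92-fold higher. The secreted acid phosphatase PHO5 was 2.42-fold higher but low, at 3.15, 4.40 and 3.69 CPM in Pcf11-AARR and 1.84, 1.52 and 1.31 CPM in the libraries labelled ΔPcf11. For these 4 genes no library of one strain reached into the range of the other, as for nearly all called features. Of 20 genes of polyphosphate and PHO regulation, 9 were higher and 1 lower, with a median of 0.34. They included 4 genes of the vacuolar transporter chaperone complex, which makes polyphosphate. VTC1 was at 1.12 ± 0.12, VTC4 at 0.80 ± 0.10, VTC3 at 0.69 and VTC5 at 0.61. SPL2, which acts on the low-affinity phosphate transporters, was at 0.88 ± 0.10. The lower member was PHM7, a membrane protein, at -0.38 ± 0.13.

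Genes that make phospholipids were higher as well. Of 20 genes of fatty acid and phospholipid synthesis, 12 were higher and 1 lower, 60.0% against 19.8% of all features, with a median of 0.51. INO1 (YJL153C, chrX:133870-135933, minus strand), inositol-3-phosphate synthase, had 847, 766 and 926 CPM in Pcf11-AARR and 274, 352 and 190.1 CPM in the libraries labelled ΔPcf11, 3.11-fold higher (log2 fold change 1.64 ± 0.22, edgeR adjusted p = 0.00158). PSD1, the mitochondrial phosphatidylserine decarboxylase, had 129, 124 and 143 CPM in Pcf11-AARR and 38.8, 43.4 and 36.2 CPM in the libraries labelled ΔPcf11, 3.34-fold higher. CHO1, phosphatidylserine synthase, was 1.87-fold higher. Both a repressor and an activator of these genes were higher too. OPI1, the repressor, had 511, 423 and 528 CPM in Pcf11-AARR and 191, 195 and 159.6 CPM in the libraries labelled ΔPcf11, and INO2, a subunit of the activator, 67.9, 69.5 and 69.7 CPM in Pcf11-AARR and 26.5, 29.1 and 22.8 CPM in the libraries labelled ΔPcf11. ITR1, the inositol transporter, was at 0.82 ± 0.14. The 1 lower member was OLE1, the fatty acid desaturase, with 518, 692 and 645 CPM in Pcf11-AARR and 1031, 1087 and 898 CPM in the libraries labelled ΔPcf11 (log2 fold change -0.70 ± 0.16, edgeR adjusted p = 0.0110).

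The upstream sequences of 4 higher members are shown because the activator that contains Ino2 is known to bind a short element in front of such genes. Each is the 200 bases from 250 to 51 before the start codon, cut from the RefSeq genome of assembly R64 and printed 5′ to 3′ along the gene, with matches to the letters CATGTG on either strand in capitals. They are PSD1 at chrXIV:317722-317921, INO1 at chrX:135984-136183, INO2 at chrIV:699519-699718 and CHO1 at chrV:208525-208724, all on the minus strand.
PSD1: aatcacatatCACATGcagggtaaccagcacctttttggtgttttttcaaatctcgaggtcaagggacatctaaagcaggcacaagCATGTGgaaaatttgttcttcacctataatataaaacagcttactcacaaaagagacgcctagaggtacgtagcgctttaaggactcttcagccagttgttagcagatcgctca
INO1: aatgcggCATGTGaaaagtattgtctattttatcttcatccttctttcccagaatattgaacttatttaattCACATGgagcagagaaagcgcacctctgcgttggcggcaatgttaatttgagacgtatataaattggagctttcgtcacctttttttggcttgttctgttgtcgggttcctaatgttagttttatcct
INO2: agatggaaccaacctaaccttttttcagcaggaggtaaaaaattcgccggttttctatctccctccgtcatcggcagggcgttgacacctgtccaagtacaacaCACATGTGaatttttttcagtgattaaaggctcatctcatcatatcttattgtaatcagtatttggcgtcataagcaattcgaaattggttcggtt
CHO1: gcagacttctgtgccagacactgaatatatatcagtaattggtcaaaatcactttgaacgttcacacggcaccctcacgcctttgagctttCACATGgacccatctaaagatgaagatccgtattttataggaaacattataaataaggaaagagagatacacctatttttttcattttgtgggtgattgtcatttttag
In INO2 the capitals are a match on each strand that overlap. Of the 20 members, 11 have a match in this window (55.0%), 9 of the 12 higher ones among them. Of 5991 coding genes with such a window 294 have one (4.91%). The matches are a description of the letters and not of binding, and the element was chosen with the values known.

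Of 19 genes of the peroxisomal breakdown of fatty acids, 7 were lower in Pcf11-AARR (36.8%, against 17.2% of all features), 1 was higher and 11 were not called, with a median of -0.35. POX1, the acyl-CoA oxidase, had 71.6, 89.1 and 117 CPM in Pcf11-AARR and 341, 138 and 183 CPM in the libraries labelled ΔPcf11 (log2 fold change -1.25 ± 0.33, edgeR adjusted p = 0.0214), with its highest value in labelled ΔPcf11 replicate 1. ECI1, an isomerase of unsaturated fatty acids, was at -1.21 ± 0.16 and shares 68.0% of its bases with YLR283W. The higher gene was FAA1, an acyl-CoA synthetase, at 0.95 ± 0.13. The number called lower was 2 without Pcf11-AARR replicate 1, 1 without Pcf11-AARR replicate 2, 11 without labelled ΔPcf11 replicate 2 and 4 without labelled ΔPcf11 replicate 3.

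Among genes of amino acid uptake and synthesis, more were called higher than lower in Pcf11-AARR. Of 19 amino acid permeases, 11 were higher (57.9%, against 19.8% of all features) and 1 lower, with a median of 0.46. TAT1, a permease of branched-chain and aromatic amino acids, had 57.0, 61.5 and 74.6 CPM in Pcf11-AARR and 21.2, 16.6 and 25.7 CPM in the libraries labelled ΔPcf11, 3.04-fold higher (log2 fold change 1.61 ± 0.18, edgeR adjusted p = 0.000672). DIP5, the permease of acidic amino acids, had 231, 228 and 295 CPM in Pcf11-AARR and 133, 57.4 and 57.7 CPM in the libraries labelled ΔPcf11, where replicate 1 was again the highest. The tryptophan permease TAT2 was at 1.03 ± 0.14, and the lower one was VBA1, a vacuolar transporter of basic amino acids, at -0.41 ± 0.11. Without labelled ΔPcf11 replicate 3, 6 of the 19 were called higher. Among 28 genes of nitrogen uptake and assimilation, 11 were higher (39.3%) and 1 lower. UGA2, an enzyme of the breakdown of gamma-aminobutyrate, had 428, 393 and 398 CPM in Pcf11-AARR and 182, 187 and 159 CPM in the libraries labelled ΔPcf11 (log2 fold change 1.21 ± 0.11), and the ammonium permease MEP2 was at 0.65 ± 0.14. GDH3, a glutamate dehydrogenase, was the lower one, at -0.82 ± 0.24. The number of higher nitrogen genes came to 6 without Pcf11-AARR replicate 1, Pcf11-AARR replicate 3, labelled ΔPcf11 replicate 2 or labelled ΔPcf11 replicate 3.

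Of 65 genes of amino acid biosynthesis, 23 were higher (35.4%, against 19.8% of all features), 7 lower (10.8%, against 17.2%) and 35 not called, with a median of 0.23. Their summed level was 4413, 4337 and 4336 CPM in Pcf11-AARR and 4252, 4847 and 4254 CPM in the libraries labelled ΔPcf11, so the sums overlap. LEU1, isopropylmalate isomerase, had 124, 179 and 195 CPM in Pcf11-AARR and 54.7, 40.2 and 49.8 CPM in the libraries labelled ΔPcf11, 3.44-fold higher. LEU2, the next enzyme, had 38.0, 54.1 and 57.4 CPM in Pcf11-AARR and 17.6, 18.5 and 17.7 CPM in the libraries labelled ΔPcf11, 2.78-fold higher. The arginine genes ARG1 and ARG4 were at 1.05 ± 0.10 and 1.04 ± 0.11, and ILV3, of the branched-chain pathway, at 1.03 ± 0.15. Asparagine synthetase ASN1 was lower, with 442, 376 and 272 CPM in Pcf11-AARR and 708, 1140.2 and 618 CPM in the libraries labelled ΔPcf11 (log2 fold change -1.18 ± 0.27, edgeR adjusted p = 0.0121), as was the lysine gene LYS21 at -0.86 ± 0.20. GCN4, the transcription factor that activates many genes of the list, was lower at the RNA level, with 94.9, 95.8 and 89.6 CPM in Pcf11-AARR and 124, 149 and 132 CPM in the libraries labelled ΔPcf11 (log2 fold change -0.53 ± 0.10, edgeR adjusted p = 0.00595). Gcn4 is known to be set largely by translation, which these data do not measure. Without labelled ΔPcf11 replicate 3, 12 of the 65 were called higher, and with the length correction 21 were higher and 11 lower.

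Upstream windows of 3 higher members, drawn as above, are shown with matches to TGACTC, the core that Gcn4 is known to bind, in capitals. They are ARG4 at chrVIII:141453-141652, minus strand, ILV3 at chrX:466259-466458, minus strand, and HOM2, which encodes an enzyme of the threonine and methionine branch, at chrIV:770107-770306, plus strand.
ARG4: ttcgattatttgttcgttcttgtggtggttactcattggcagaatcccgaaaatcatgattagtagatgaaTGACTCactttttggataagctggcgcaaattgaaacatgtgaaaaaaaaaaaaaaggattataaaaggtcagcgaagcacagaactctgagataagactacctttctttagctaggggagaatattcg
ILV3: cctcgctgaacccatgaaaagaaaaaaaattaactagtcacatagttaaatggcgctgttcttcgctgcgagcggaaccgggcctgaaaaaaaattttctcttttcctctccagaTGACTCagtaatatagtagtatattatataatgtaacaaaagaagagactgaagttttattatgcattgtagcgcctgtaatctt
HOM2: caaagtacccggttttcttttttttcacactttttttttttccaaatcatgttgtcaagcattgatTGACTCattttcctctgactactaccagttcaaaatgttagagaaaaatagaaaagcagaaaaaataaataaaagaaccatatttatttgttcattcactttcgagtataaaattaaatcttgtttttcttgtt
A match on either strand was found in 36 of the 65 members (55.4%), 13 of the 23 higher ones among them, and in 314 of the 5991 windows (5.24%). The share among the higher members was thus close to that of the whole list. Members without these letters in the window were also called higher, LEU1, LEU2 and ARG1 among them. For the phosphate list above, the letters CACGTG, known to be bound by Pho4, stood in the windows of 2 of 12 members (16.7%), against 144 of the 5991 (2.40%), and in 0 of the 7 higher members. Bases outside the window were not searched, so whether these 7 genes carry the letters farther upstream was not tested. For glycolysis, CTTCC, known to be bound by Gcr1, stood in 7 of 17 (41.2%), against 32.9% of all windows. Of the lower members, TDH2, GPM1, FBA1 and PFK2 held it and the others did not. Searched as well were AGGGG, the stress response element, in 9 of 19 genes of trehalose and glycogen (47.4%, against 15.5% of all windows), and TGAAACA, the pheromone response element, in 13 of 27 genes of pheromone signalling (48.1%, against 4.99%). Among the higher members, AGGGG stood in 2 of 4 and TGAAACA in 2 of 8.

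Calls among genes of cytosolic and of mitochondrial ribosomal proteins went mostly in opposite directions. Of 137 genes of cytosolic ribosomal proteins, 58 were lower and 1 higher, 42.3% lower against 17.2% of all features, with a median of -0.44. Their summed level was 29062, 28516 and 19667 CPM in Pcf11-AARR and 30324, 43204 and 44845 CPM in the libraries labelled ΔPcf11, so that labelled ΔPcf11 replicate 1 lay close to Pcf11-AARR replicates 1 and 2. RPL9B, of the large subunit, had 32.7, 38.3 and 23.8 CPM in Pcf11-AARR and 67.8, 94.6 and 95.1 CPM in the libraries labelled ΔPcf11 (log2 fold change -1.44 ± 0.20, edgeR adjusted p = 0.00176), RPS24B was at -1.19 ± 0.23, and RPS9A was the higher one, at 0.56 ± 0.17. Most such genes exist as near-identical pairs, between which reads may have been split. The count was 93 without the 2 libraries that stand apart, 46 with the length correction, 28 without Pcf11-AARR replicate 1, 35 without labelled ΔPcf11 replicate 2 and 16 without labelled ΔPcf11 replicate 3.

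Genes of mitochondrial ribosomal proteins, which serve translation inside the organelle, were called higher more often than lower. Of 75 genes, 38 were higher (50.7%, against 19.8% of all features) and 2 lower (2.67%). The median was 0.41, although their median length of 1136 bases is below the 1578 bases of all features. Their summed level was 17199, 15669 and 13099 CPM in Pcf11-AARR and 10590.0, 13962 and 12644 CPM in the libraries labelled ΔPcf11. The sums overlap, since Pcf11-AARR replicate 3 lay below labelled ΔPcf11 replicate 2. YML6 had 73.7, 73.5 and 74.8 CPM in Pcf11-AARR and 35.4, 36.5 and 33.7 CPM in the libraries labelled ΔPcf11, 2.10-fold higher (log2 fold change 1.07 ± 0.09, edgeR adjusted p = 0.000292), and MRPL10 and RML2 were at 1.06 ± 0.11 and 1.04 ± 0.10. With the length correction 45 were higher, without the 2 libraries that stand apart 49, and without labelled ΔPcf11 replicate 3, 23. Of 115 genes of ribosome biogenesis, the factors that process ribosomal RNA in the nucleolus, 26 were higher (22.6%, against 19.8% of all features) and 3 lower, with a median of 0.28 that came to 0.11 without labelled ΔPcf11 replicate 2. DRS1, a helicase of the large subunit pathway, had 466, 453 and 493 CPM in Pcf11-AARR and 259.7, 189 and 218 CPM in the libraries labelled ΔPcf11 (log2 fold change 1.08 ± 0.14, edgeR adjusted p = 0.00125), and DIM1, which methylates the small subunit RNA, was at 0.99 ± 0.11. NOB1, the nuclease that makes the final cut of the small subunit RNA, was lower at -1.14 ± 0.10. The number called higher was 14 without Pcf11-AARR replicate 1 and 10 without replicate 2. Leaving out labelled ΔPcf11 replicates 1, 2 and 3 in turn gave 43, 16 and 9, and leaving out the 2 libraries that stand apart gave 47. The upstream window of DRS1, at chrXII:131479-131678, plus strand, is shown with 2 overlapping matches to GATGAG, the PAC element known from such genes, in capitals.
DRS1: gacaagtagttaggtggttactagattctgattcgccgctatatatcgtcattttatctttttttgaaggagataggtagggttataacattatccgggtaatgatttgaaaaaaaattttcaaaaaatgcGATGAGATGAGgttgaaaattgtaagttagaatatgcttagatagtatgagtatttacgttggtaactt
Those letters stand, on either strand, in the windows of 102 of the 115 members (88.7%) and in 938 of all 5991 (15.7%). Of the 26 higher members, 23 hold them, a share close to that of the whole list. The letters thus do not set the higher members apart from the others.

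Short features were lower in Pcf11-AARR in general, which bears on the lists of short genes. The median log2 fold change was -0.33 among the shortest 609 features, 51 to 703 bases, and 0.14 at 2111 to 2507 bases. Across 6087 features the Spearman correlation of the fold change with length was 0.21. Of 59 RNAs with snR names tested, with a median length of 171 bases, 18 were lower (30.5%, against 17.2% of all features) and 1 higher. Most are small nucleolar RNAs, while snR14 and snR19 are spliceosomal. Among the 57 annotated as small nucleolar RNAs, 17 were lower and 1 higher. The median of the 59 was -0.51, and 8 were called lower without labelled ΔPcf11 replicate 2 or replicate 3. With the length correction, 9 of the 59 were lower and 4 higher, with a median of -0.07. The levels were low in most, as with snR3 at 0.659, 0.434 and 0.467 CPM in Pcf11-AARR and 1.48, 2.04 and 1.85 CPM in the libraries labelled ΔPcf11, and 27 of the 59 share at least 50% of their bases with another feature. The part of RNA length or library preparation in these differences was not tested.

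**Figure D5:**
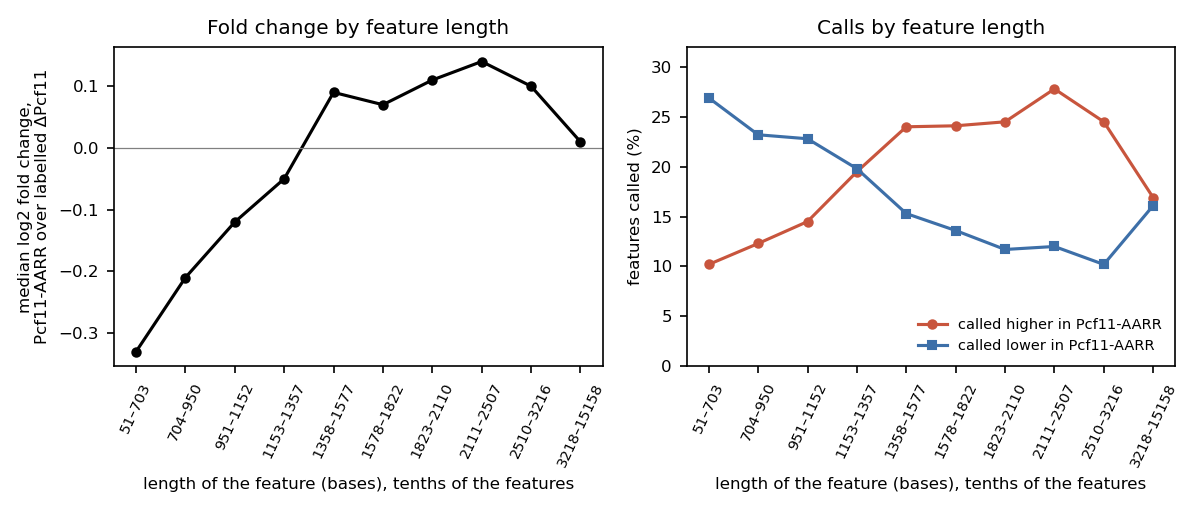
Left, the median log2 fold change, Pcf11-AARR over the libraries labelled ΔPcf11, in 10 groups of features ordered by length in bases. Right, the percent of features called higher and lower in Pcf11-AARR in each group, where 26.9% of the shortest were called lower and 10.2% higher, against 12.0% lower and 27.8% higher at 2111 to 2507 bases.

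In the lists of meiotic and of stationary-phase genes, more members were called lower than higher in Pcf11-AARR. Of 42 genes of meiosis and sporulation, 16 were lower (38.1%, against 17.2% of all features), 4 higher and 22 not called, with a median of -0.22. IME1 had 33.8, 34.8 and 44.1 CPM in Pcf11-AARR and 203, 269 and 169 CPM in the libraries labelled ΔPcf11 (log2 fold change -2.51 ± 0.20, edgeR adjusted p = 0.000292). The kinase gene IME2, which Ime1 is known to activate, was higher, with 38.5, 31.4 and 36.9 CPM in Pcf11-AARR and 15.8, 14.8 and 12.9 CPM in the libraries labelled ΔPcf11 (log2 fold change 1.29 ± 0.12, edgeR adjusted p = 0.000397). So was UME6, the DNA-binding partner of Ime1, at 1.36 ± 0.22. Among genes of the spore wall, GAS4 was 3.92-fold lower, DIT1 2.49-fold lower and OSW2 2.17-fold lower. DIT2, which acts after DIT1 in the synthesis of the outer layer, was higher, at a log2 fold change of 1.16 ± 0.14, and the chitin deacetylase genes CDA1 and CDA2 were not called, at -0.14 ± 0.33 and 0.07 ± 0.12. OSW2 stood at 1258, 1150.5 and 619 CPM in Pcf11-AARR, against 1911, 2417 and 2251 CPM in the libraries labelled ΔPcf11. Without labelled ΔPcf11 replicate 3, 9 of the 42 were called lower. The labels do not say whether the cells were haploid.

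Of 23 stationary-phase and hydrophilin genes, 12 were lower (52.2%, against 17.2% of all features) and 3 higher (13.0%, against 19.8%), with a median of -0.50. SIP18 had 1724, 2238 and 1754 CPM in Pcf11-AARR and 9641, 10219.8 and 11724 CPM in the libraries labelled ΔPcf11. SPG4, a gene of survival in stationary phase, was at -0.69 ± 0.21, HSP12, a membrane-associated stress protein, at -0.81 ± 0.27, and SED1, the main wall protein of stationary cells, at -1.05 ± 0.20. The paralog of SED1, SPI1, was higher, with 105, 76.4 and 79.0 CPM in Pcf11-AARR and 36.4, 40.1 and 28.7 CPM in the libraries labelled ΔPcf11 (log2 fold change 1.30 ± 0.17, edgeR adjusted p = 0.00130). HSP12 shares 80.3% of its bases with IES1. Heat shock proteins were split, with 9 of 31 higher (29.0%, against 19.8% of all features) and 8 lower (25.8%, against 17.2%). The higher ones included SSA4, an inducible Hsp70, at 1.41 ± 0.13 and the mitochondrial chaperones HSP60 and MDJ1 at 1.15 and 1.20. Lower were SSA3, another inducible Hsp70, at -1.02 and HSP26, a small heat shock protein, at -0.96 ± 0.17. Of 34 autophagy genes, 11 were lower (32.4%, against 17.2% of all features) and 2 higher. The extremes were ATG16 at -1.12 ± 0.10 and ATG41 at 0.82 ± 0.13. When single libraries of either strain other than labelled ΔPcf11 replicate 1 were left out, 5 to 7 were called lower.

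Metal genes were called in both directions, and the vitamin genes that were called were all lower. Of 35 genes of iron and copper uptake, 11 were higher (31.4%, against 19.8% of all features) and 5 lower (14.3%, against 17.2%). Without labelled ΔPcf11 replicate 3, 7 were higher, and with the length correction 8 were higher and 9 lower. Beside FTR1, its partner oxidase FET3 was at 0.88 ± 0.17 and the siderophore transporter ENB1 at 1.61 ± 0.19. Another siderophore transporter, ARN2, went the other way and was the lowest of the 35, at -1.60. Of the genes of copper, CTR1, the main copper transporter, was at 0.51 and others were lower. CTR3, a copper transporter, had 958, 1065 and 905 CPM in Pcf11-AARR and 1594, 1771 and 2374 CPM in the libraries labelled ΔPcf11, and CUP1-2, one of the identical copies of the copper metallothionein, was at -1.25 ± 0.27 and lies within the RSC30 feature. Of 22 genes of thiamine and vitamin B6 synthesis, 0 were higher and 8 lower (36.4%, against 17.2% of all features), with a median of -0.29. THI4, which makes the thiazole part of thiamine, had 10.2, 8.37 and 8.39 CPM in Pcf11-AARR and 25.9, 30.8 and 34.0 CPM in the libraries labelled ΔPcf11, 3.38-fold lower. The remaining 7, at -0.38 to -0.81, were THI5, THI11, THI12, THI21, SNZ2, SNO2 and SNO3, which belong to families whose copies are alike in sequence.

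Genes of cell type and selection were checked, since the labels do not give the mating type. The 7 genes that mark a cells summed to 371, 336 and 287 CPM in Pcf11-AARR and 418, 613 and 627 CPM in the libraries labelled ΔPcf11, and the 4 that mark alpha cells to 113, 117 and 114 CPM in Pcf11-AARR and 121, 119 and 124 CPM in the libraries labelled ΔPcf11. None of the 11 was at 0 in a library. Of the a-cell genes, 3 were lower (42.9%, against 17.2% of all features) and 0 higher, and 1 was lower without labelled ΔPcf11 replicate 3. The 3 were the pheromone genes MFA1 and MFA2 at -0.77 ± 0.20 and -1.10 ± 0.26, and AGA2, which shares 90.0% of its bases with HOP2, at -1.87 ± 0.16. Of the alpha-cell genes 0 were called, and MF(ALPHA)1 stood at 16.7, 16.8 and 15.3 CPM in Pcf11-AARR and 18.4, 21.2 and 20.2 CPM in the libraries labelled ΔPcf11. Of 8 genes used as auxotrophic markers, 2 were higher (25.0%, close to the 19.8% of all features), both by more than 2-fold. URA3 had 587, 529 and 503 CPM in Pcf11-AARR and 152, 221 and 218 CPM in the libraries labelled ΔPcf11, 2.74-fold higher (log2 fold change 1.46 ± 0.17, edgeR adjusted p = 0.000760), and LEU2 is given above. Whether a marker cassette differs between the strains was not tested. The 11 histone genes gave 0 calls in either direction, against 37.0% of all features. Of 44 genes of the cell cycle and DNA replication, 14 were higher (31.8%, against 19.8% of all features) and 6 lower (13.6%, against 17.2%). Among them were MCM2, of the replicative helicase, at 1.10 ± 0.10 and RFA3, of the single-strand binding complex, at -1.24 ± 0.28. Without labelled ΔPcf11 replicate 3, 9 of the 44 were called higher.

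Differences between the nuclear chromosomes were small. Chromosome I held the highest share of higher features among the nuclear chromosomes. There, 29 of 90 features were higher (32.2%, against 19.8% of all features) and 10 lower (11.1%, against 17.2%). The median log2 fold change of 0.17 ran from 0.09 to 0.20 as single libraries were left out. On the other nuclear chromosomes the medians lay between -0.06 and 0.07. Of 13 features of the mitochondrial genome, several of which overlap, 6 were higher (46.2%) and 0 lower. Their median of 0.80 ran from 0.58 to 1.14 as single libraries were left out. In the narrower list of mitochondrial genes, 1 of 5 tested was higher and 0 lower, with a median of 0.22. These 5 summed to 34.9, 34.3 and 35.0 CPM in Pcf11-AARR and 53.2, 18.5 and 22.0 CPM in the libraries labelled ΔPcf11. The sums thus overlap. Within 30 kb of a chromosome end, 59 of 359 features were higher (16.4%) and 99 lower (27.6%), with a median of -0.10. Because Pcf11 acts where genes end, genes were also grouped by their downstream neighbour. Of 2857 genes followed by a gene on the same strand, 22.1% were higher and 482 genes lower, and of 3053 genes facing a convergent neighbour 18.6% were higher and 519 genes lower, with medians of 0.02 and -0.01. A convergent pair with large and nearly equal values was UTR2, a cell wall transglycosylase, and CYC7, an isoform of cytochrome c, which share 91.7% of the bases of CYC7. UTR2 had 758, 465 and 316 CPM in Pcf11-AARR and 126, 210.4 and 173 CPM in the libraries labelled ΔPcf11. CYC7 had 811, 499 and 336 CPM in Pcf11-AARR and 135, 228 and 187 CPM in the libraries labelled ΔPcf11. Which of the genes the shared reads belong to cannot be told apart in these counts.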

How the data were processed

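mRNA-seq libraries of both strains were analysed from the table of counts per feature that the authors deposited, whole-number reads per gene summing to 26211192 to 46296634 per library. Reads were trimmed with fastp 0.23.0, per the submitters' processing notes, and no source used here names the aligner, the counting tool or its strand setting. The authors also deposited RPKM values, which equal those recomputed here from the counts (largest relative difference 5.1e-15), a table of log2 fold changes with adjusted p-values, which runs labelled ΔPcf11 over Pcf11-AARR, and percent of reads mapped and per region.

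From the counts, features with a gene name (98.7% to 99.0% of counts) were kept, filtered with filterByExpr, scaled by TMM and tested with edgeR 4.0.16's quasi-likelihood F test on 3 against 3 libraries in R 4.3.3, with limma 3.58.1. P-values were adjusted by Benjamini-Hochberg, the SE is the log2 fold change divided by the root of F, and the script was tested on simulated data. Other tools were DESeq2 1.42.0, matplotlib 3.10.9, scipy 1.17.1, numpy 2.4.6, pandas 2.3.3 and Python 3.11.15. The length correction gave each library a loess curve (span 0.3) of its deviation on feature length as offsets. Placing features by RefSeq's R64 annotation, 4822 of 6404 (75.3%) overlap another, and reads of overlapping or near-identical genes may be shared.

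The samples are labelled biological replicates, nothing says that replicate numbers are shared between strains, and p-values measure the spread between these libraries. Genes named are PCF11, the 15 highest and 15 lowest called features that have a standard name, at least 10 CPM in the higher strain and no overlap between strains, up to 3 called members per list and direction, and further members chosen after their values were seen. The 55 gene lists and the members were chosen with earlier results of these data known. Alternatives were the relative log expression scaling, other filters, DESeq2, WT libraries in the fit, a replicate block, each library left out, both libraries that stand apart left out, and the length correction.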

Additional observations from a re-analysis of the deposited data

How the results depend on the processing

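PCF11 was higher in Pcf11-AARR under all 14 alternatives, at log2 fold changes of 0.61 to 0.77. With each of the 6 libraries left out in turn, PCF11 ran from 0.69 to 0.77, and the calls ran from 667 to 1217 higher and from 620 to 1137 lower, with 131 to 174 higher and 208 to 305 lower by 2-fold or more. The lowest numbers of calls, 667 and 620, came without labelled ΔPcf11 replicate 3, and without Pcf11-AARR replicate 2 there were 689 lower. Of the 2254 features called, 0 took the other sign under any of these alternatives. DESeq2 called 1298 higher and 1326 lower, the WT libraries in the fit gave 1368 and 1239, relative log expression 1143 and 1128, and other filters 1208 to 1210 and 1045 to 1046. The share of calls that were higher was 49.5% to 55.5%, against 53.6%. Among alternatives chosen after seeing the data, the length correction gave 1187 and 1153, and leaving out both libraries that stand apart gave 1358 and 1347. Of 287 named genes, 62 lost their call without labelled ΔPcf11 replicate 3 and 7 with the length correction. The 287 include genes that were not called to begin with, since 247 of the 284 picked by rule were called. The uncalled CDA1 ran from -0.47 to 0.15 and the uncalled CDA2 from -0.03 to 0.15 with each library left out in turn, and CDA2 was at -0.02 without both libraries that stand apart. With the replicate number as a block, 873 were higher and 735 lower and PCF11 stayed at 0.74. Deviations of same-numbered libraries correlated at -0.60, 0.29 and -0.37, so the numbers were not taken to pair the libraries. The cause of these changes was not tested. The count filter kept 6092 of 6409 named features, but only 15 of 30 in the list of seripauperins, TIR and DAN mannoproteins. Whether depth limited the calls was not tested.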

Other observations

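Sulfur and methyl metabolism held changes in both directions. Of 32 genes of sulfate assimilation and methionine, 10 were higher (31.2%) and 4 lower (12.5%) in Pcf11-AARR, against 19.8% and 17.2% of all features. The median log2 fold change was 0.14, which came to 0.06 without Pcf11-AARR replicate 1 or labelled ΔPcf11 replicate 1. SAM2, an S-adenosylmethionine synthetase, had 48.9, 51.6 and 47.8 CPM in Pcf11-AARR and 23.7, 24.2 and 18.7 CPM in the libraries labelled ΔPcf11, 2.23-fold higher. MUP1, the high-affinity methionine permease, was at 0.89 ± 0.14, and the sulfate permease SUL1 was lower, at -0.65 ± 0.11. The S-adenosylmethionine uptake gene SAM3 was at 0.76 ± 0.14, and MET28, a transcription factor of the pathway, at -0.68 ± 0.09. Of the 4 genes named with a value and SE here, none had strains that overlapped, as for nearly all called features.

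Of 19 genes of trehalose and glycogen, 4 were higher (21.1%), 3 lower (15.8%) and 12 not called. These shares are close to the 19.8% and 17.2% of all features. Both glycogen synthases were higher, GSY1 with 282, 246 and 291 CPM in Pcf11-AARR and 183, 161 and 149.6 CPM in the libraries labelled ΔPcf11, and GSY2 at a log2 fold change of 0.59 ± 0.12. GAC1 and PIG2, which are regulatory subunits for the Glc7 phosphatase, were lower, at -2.15 ± 0.18 and -0.92 ± 0.11, as was GLG2, which starts the glycogen chain, at -0.59 ± 0.11. Of 13 genes of maltose and isomaltose use, 2 were higher (15.4%) and 4 lower (30.8%). The maltose permease MAL31 had 254, 317 and 332 CPM in Pcf11-AARR and 871, 569 and 749 CPM in the libraries labelled ΔPcf11, and the maltases MAL12 and MAL32, near-identical copies, were at -0.98 ± 0.20 and -1.21 ± 0.21. The activator genes MAL13 and MAL33 were higher, at 0.76 ± 0.14 and 0.63 ± 0.15. The seripauperin, TIR and DAN mannoproteins were split, with 5 of 15 tested higher (33.3%) and 4 lower (26.7%). Their median was -0.19 and their log2 fold changes ran from -1.87 to 2.12. Without labelled ΔPcf11 replicate 3, 2 were called higher and 3 lower. Among the lower ones, TIR4 had 4.91, 6.90 and 8.29 CPM in Pcf11-AARR and 24.4, 23.5 and 25.9 CPM in the libraries labelled ΔPcf11, 3.65-fold lower. Its overlapping neighbour TIR2 was 2.41-fold lower.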
